A study of Homo sapiens with 24 samples.

Results

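TAp63 was switched on for 6 days in TYUC-1, a cell line from a neuroendocrine carcinoma of the esophagus that grows in suspension, and mRNA was compared with that of the same line kept in vehicle. The comparison uses 6 of the 24 libraries of the series, chosen by their sample titles alone: 3 of day 0 and 3 of day 6. All 6 carry the i-TAp63 genotype, a doxycycline-inducible transgene; the labels do not say which promoter drives it or whether the line is 1 clone. Day 0 cells received DMSO for 6 days and day 6 cells received doxycycline at 1 µg/ml for 6 days with 0 days of DMSO. A separate treatment label names EPZ-6438, a drug that blocks EZH2, for 0 days at day 0 and for 6 days at day 6, whereas p63 induction alone appears in the titles, the induction labels and the design text. Whether the inhibitor was present is not settled by the labels, and TAp63, doxycycline and any inhibitor cannot be told apart in this comparison. The i-ΔNp63 line, treated in the same way, is used for 1 comparison of responses. The series calls its 3 replicates biological but does not describe separate cultures, and p-values measure only how far these libraries spread, which may be technical.

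TP63 encodes a transcription factor of the p53 family. TAp63 starts at the upstream promoter and carries an N-terminal transactivation domain, whereas ΔNp63 starts at an internal promoter, lacks that domain and is the main form in the basal layer of stratified squamous epithelia such as that of the esophagus. p63 binds DNA sites related to those of p53, and TAp63 is known for its part in the quality control of oocytes and in the response to DNA damage.

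The 6 libraries held between 6755662 counts (day 0 replicate 1) and 20977266 counts (day 0 replicate 2) and 17778 to 19452 detected genes. Levels are given as CPM, counts scaled to a common library size after TMM adjustment, and a gene's CPM is compared between libraries only, never with another gene. At day 0 POU2F3, the master regulator of tuft cells, stood at 193, 216 and 245 CPM. INSM1 and CHGA, markers of neuroendocrine cells, were each below 1 CPM in every day 0 library. So were KRT14 and IVL, markers of basal and differentiated squamous cells, and SOX2 was at 0 in all 6 libraries. Other genes of these kinds were expressed. At day 0 the summed level was 1209 to 1291 CPM for 55 listed neuroendocrine genes and 716 to 910 CPM for 33 basal squamous genes. For 54 listed squamous differentiation genes it was 1172 to 1404 CPM. Replicates of the same number also shared levels of a few genes: VIM, a mesenchymal filament protein, stood at 15.8, 0.871 and 0.213 CPM at day 0, replicates in order, and at 11.5, 3.26 and 0.465 CPM at day 6. HBG2, a fetal globin, followed the same order, at 24.6, 1.06 and 0.425 CPM and then 15.6, 4.39 and 0.651 CPM. The summed level of the 15 erythroid markers ran from 2.02 to 67.5 CPM at day 0 and from 3.25 to 45.8 CPM at day 6. A fit with the replicate number as a block is therefore given beside results that it changes.

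TP63 itself (hg38, as are all positions; chromosome 3, 189596746 to 189897279, plus strand) stood at 2.94, 2.90 and 2.98 CPM at day 0 and at 613, 694 and 665 CPM at day 6. Every day 6 library was far above every day 0 library, with a log2 change of 7.80 ± 0.188 (SE; edgeR adjusted p = 4e-11). Means at days 1 and 3 were 372 and 559 CPM. The counts sum all isoforms of TP63, transgene-derived fragments included, so they check the induction but not which isoform was made. TP73, which encodes the related factor p73, was not called. It stood at 30.1, 26.7 and 25.2 CPM at day 0 and at 21.5, 22.7 and 21.2 CPM at day 6.

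By day 6, 85 genes had risen and 6 had fallen of 15056 tested (edgeR, Benjamini-Hochberg adjusted p under 0.05), which is 0.604% of the genes tested, 0.565% higher and 0.0399% lower. Of these, 64 rose and 1 fell at least 2-fold. The day 6 libraries of all 91 genes lay entirely above or below those of day 0, which was so for 6.76% (above) and 4.52% (below) of all genes tested. With the replicate number as a block, 306 genes were higher and 37 lower, 2.28% of the genes tested (2.03% higher and 0.246% lower), and all 91 were among them. In both fits most changes were rises, and all genes together had a median log2 change of -0.01. The 85 risen genes had a median log2 change of 1.42 and a median day 0 level of 4.52 CPM. Of the 85, 24 had a day 0 mean below 1 CPM, 23 of which were above 1 CPM at day 6, and 15 had no day 0 library above 0.5 CPM. The count of 91 rested on the libraries used: it was 35 without day 0 replicate 2, 47 without day 6 replicate 2, 50 without day 0 replicate 3 and 49 without day 6 replicate 3. Without replicate 1 of day 0 or of day 6 it was 85 or 72. With the block it was 687 without the number 1 libraries of every day of the line.

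**Figure D1:**
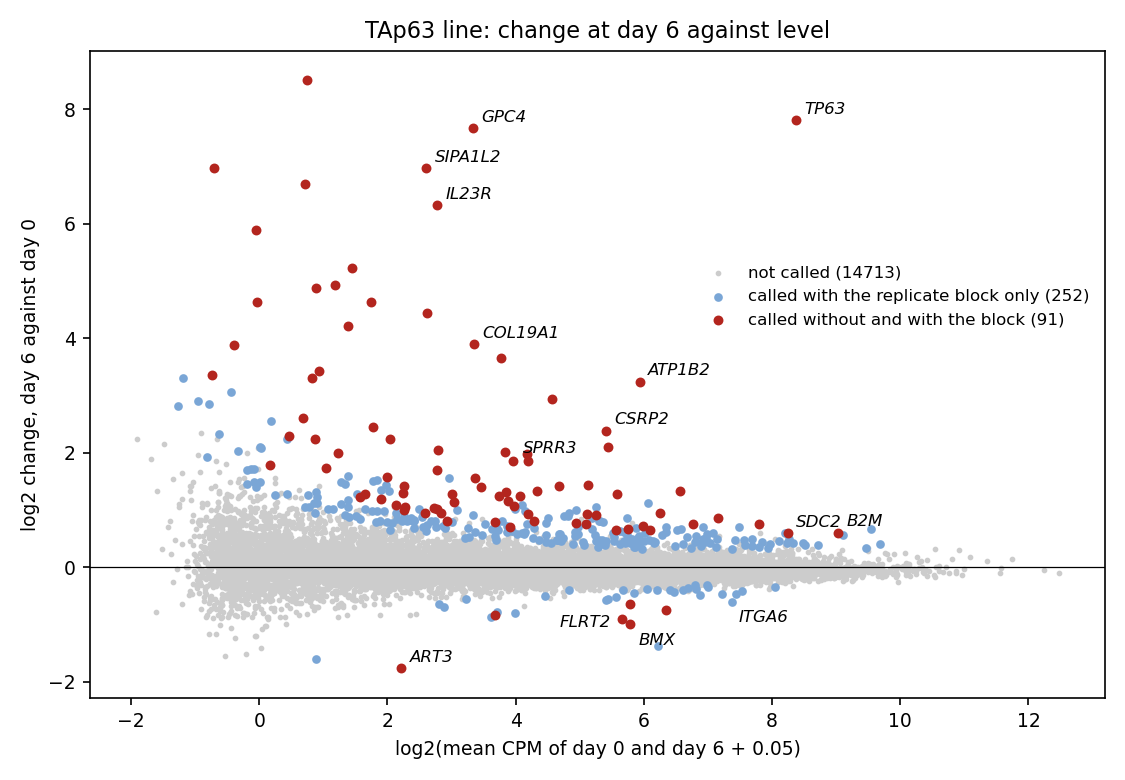
Log2 change from day 0 to day 6 of the TAp63 line (vertical axis) against the log2 of the mean CPM of both days plus 0.05 (horizontal axis), 1 point per tested gene. Red points are the 91 genes called in both fits, blue points the 252 called with the replicate block alone, and most of both lie above 0.

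Several of the risen genes came from levels near 0. GPC4, a glypican that carries heparan sulfate chains at the cell surface (chromosome X, 133300103 to 133415489, minus strand), stood at 0.309, 0 and 0.106 CPM at day 0 and at 19.4, 21.8 and 18.3 CPM at day 6 (log2 change 7.67 ± 0.499, edgeR adjusted p = 4.56e-06). SLC16A12, a monocarboxylate and creatine transporter (chromosome 10, 89430299 to 89535594, minus strand), had 0 counts over the 3 day 0 libraries and 132 over those of day 6, 3.51, 3.13 and 3.07 CPM. That is at least 49.7-fold higher, with day 0 set to a floor of 3 counts over the group. RSPO1, an enhancer of WNT signalling, went from 0 to 45 counts, at least 16.95-fold higher on the same floor. CALHM3, a subunit of a taste cell ion channel, went from 1 to 128 counts, a ratio of 145 (95% counting interval 25.5 to 5759). SLC16A12, RSPO1 and CALHM3 lie under the 5 CPM minimum for named genes and were chosen after their values were seen. Floors and intervals cover counting error only. SLC16A12 overlaps its antisense gene, and the counts do not use strand, so fragments in the overlap were left uncounted.

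Promoters of 63 of the 85 risen genes and 4 of the 6 fallen genes were found in RefSeq (GRCh38.p14), as the 250 bases before the start. They were searched on both strands for letters typical of p53-family sites: CATGNNNNNNCATG, the looser CATGNNNNNNCNNG that includes it, and GGGCATGT. The promoters of 3 genes are shown because they are the gene with the largest fold among those starting at 0, the named gene with the largest rise after TP63, and the gene with the largest fall. Capitals mark a match, on either strand. They lie at chr10:89535595-89535844 (minus strand), chrX:133415490-133415739 (minus strand) and chr4:76010940-76011189 (plus strand), in that order, and the last of them reaches just past the start given in the deposited table.
SLC16A12: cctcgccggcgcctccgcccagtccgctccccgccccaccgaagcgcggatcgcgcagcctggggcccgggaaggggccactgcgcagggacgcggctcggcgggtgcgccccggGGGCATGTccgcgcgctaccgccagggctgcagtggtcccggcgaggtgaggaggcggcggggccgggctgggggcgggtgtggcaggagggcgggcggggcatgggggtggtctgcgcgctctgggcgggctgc
GPC4: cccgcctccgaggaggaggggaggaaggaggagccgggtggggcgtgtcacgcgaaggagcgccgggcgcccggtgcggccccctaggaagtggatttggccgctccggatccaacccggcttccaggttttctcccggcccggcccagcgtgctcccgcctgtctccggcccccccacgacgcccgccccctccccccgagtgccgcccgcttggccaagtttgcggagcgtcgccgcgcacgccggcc
ART3: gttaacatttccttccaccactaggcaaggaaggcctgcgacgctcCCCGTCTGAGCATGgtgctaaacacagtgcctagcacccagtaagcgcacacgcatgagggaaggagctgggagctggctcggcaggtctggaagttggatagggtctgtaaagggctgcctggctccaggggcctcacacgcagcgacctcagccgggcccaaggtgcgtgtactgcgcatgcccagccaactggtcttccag
The full pattern CATGNNNNNNCATG was in 0 of the 63 promoters of risen genes, against 0.297% of 27305 promoters in all. CATGNNNNNNCNNG was in 2 of 63, those of ANKS4B and PSD4 (3.17%, against 7.73% of all promoters), and in 2 of the 4 of fallen genes, ART3 and PIK3R5. GGGCATGT was in 1 of 63, that of SLC16A12, against 0.542% of all promoters. Among the 11415 promoters found for all genes tested, the shares were lower, at 0.158%, 6.78% and 0.403% for these patterns in the same order. A match is a description of letters, and sites outside these windows were not searched.

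Among the other large rises were genes of signalling, membrane transport and the extracellular matrix. SIPA1L2, a GTPase-activating protein for Rap (chromosome 1, 232397966 to 232515608, minus strand), stood at 0.155, 0.0968 and 0.0532 CPM at day 0 and 14.6, 11.6 and 9.76 CPM at day 6 (log2 change 6.96 ± 0.468, edgeR adjusted p = 5.15e-06). IL23R, the receptor subunit that binds interleukin 23 (chromosome 1, 67166454 to 67259967), stood at 0.773, 0.0484 and 0.0532 CPM and then at 10.3, 13.6 and 16.2 CPM (6.32 ± 0.921, edgeR adjusted p = 0.00504). Replicate 1 of day 0 was the highest of its group for both genes, and the groups did not overlap. Without day 0 replicate 2, IL23R lost its call (edgeR adjusted p = 0.0679). TRPM6, a magnesium channel, rose from a mean of 0.135 ± 0.0255 to 5.24 ± 0.622 CPM (SD, n = 3). ATP1B2, a beta subunit of the sodium pump, stood at 10.4, 12.7 and 11.8 CPM at day 0 and 84.1, 122 and 126 CPM at day 6 (log2 change 3.24 ± 0.525, edgeR adjusted p = 0.0109), with no call without day 0 replicates 2 or 3 (up to 0.0799). These were the called members among 15 tested cation channel genes and 8 tested sodium and proton pump genes, with medians of 0.09 and 0.11. Over all genes tested 0.565% were called higher. KCNK1, a potassium channel, was called higher with the block alone.

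CSRP2, a LIM domain protein of muscle and fibroblasts, stood at 18.1, 11.3 and 12.5 CPM at day 0 and 74.5, 73.7 and 65.7 CPM at day 6 (log2 change 2.39 ± 0.171, edgeR adjusted p = 9.24e-06). APOBEC3C, a cytidine deaminase that restricts retroelements, stood at 15.3, 14.1 and 19.4 CPM and then at 56.7, 86.1 and 67.5 CPM (2.104 ± 0.161, edgeR adjusted p = 1.35e-05). TMEFF2, a transmembrane protein with follistatin domains, rose from 7.38 ± 1.05 to 28.8 ± 3.00 CPM. ZCCHC24, a zinc finger gene, rose from 5.37 ± 0.412 to 41.8 ± 6.63 CPM. TSPAN18, a tetraspanin, rose from 0.718 ± 0.716 to 11.4 ± 0.678 CPM, with day 0 replicate 1 at 1.55 CPM against 0.290 and 0.319 in the others. The transporter-like gene MFSD4A and its antisense neighbour MFSD4A-AS1 rose together (log2 changes 1.85 and 3.66). They overlap at chromosome 1, 205569014 to 205569305. Fragments were counted without strand, and those in the overlap were left uncounted. RTN4RL2, a Nogo receptor homolog (2.02), RNASE1, a secreted ribonuclease (1.70), PKIB, an inhibitor of protein kinase A (1.56), ATP9A, a phospholipid flippase (1.41), and KIAA0040 (1.30) rose too. CD55, which protects cells from complement, stood at 73.4, 42.6 and 45.9 CPM at day 0 and 152, 127 and 124 CPM at day 6 (1.33 ± 0.193, edgeR adjusted p = 0.00498). FAM230I (2.44), FAM86B3P (2.04) and FAM157A (1.32) belong to multicopy families, as APOBEC3C has close paralogs, so their counts are uncertain.

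Some of these calls lay near the threshold. RTN4RL2 and RNASE1 lost theirs without any 1 of the 6 libraries (edgeR adjusted p up to 0.237 and 0.249976), while their log2 changes ran from 1.87 to 2.18 and from 1.57 to 1.78, and MFSD4A and KIAA0040 without any of 5 of them (up to 0.104 and 0.249). Without day 0 replicate 2 the call of FAM230I ended (0.0507 by edgeR, adjusted p), as did that of ATP9A, which also ended without day 6 replicate 2 (up to 0.100289). FAM157A was not called without day 0 replicates 2 or 3 (up to 0.132).

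**Figure D2:**
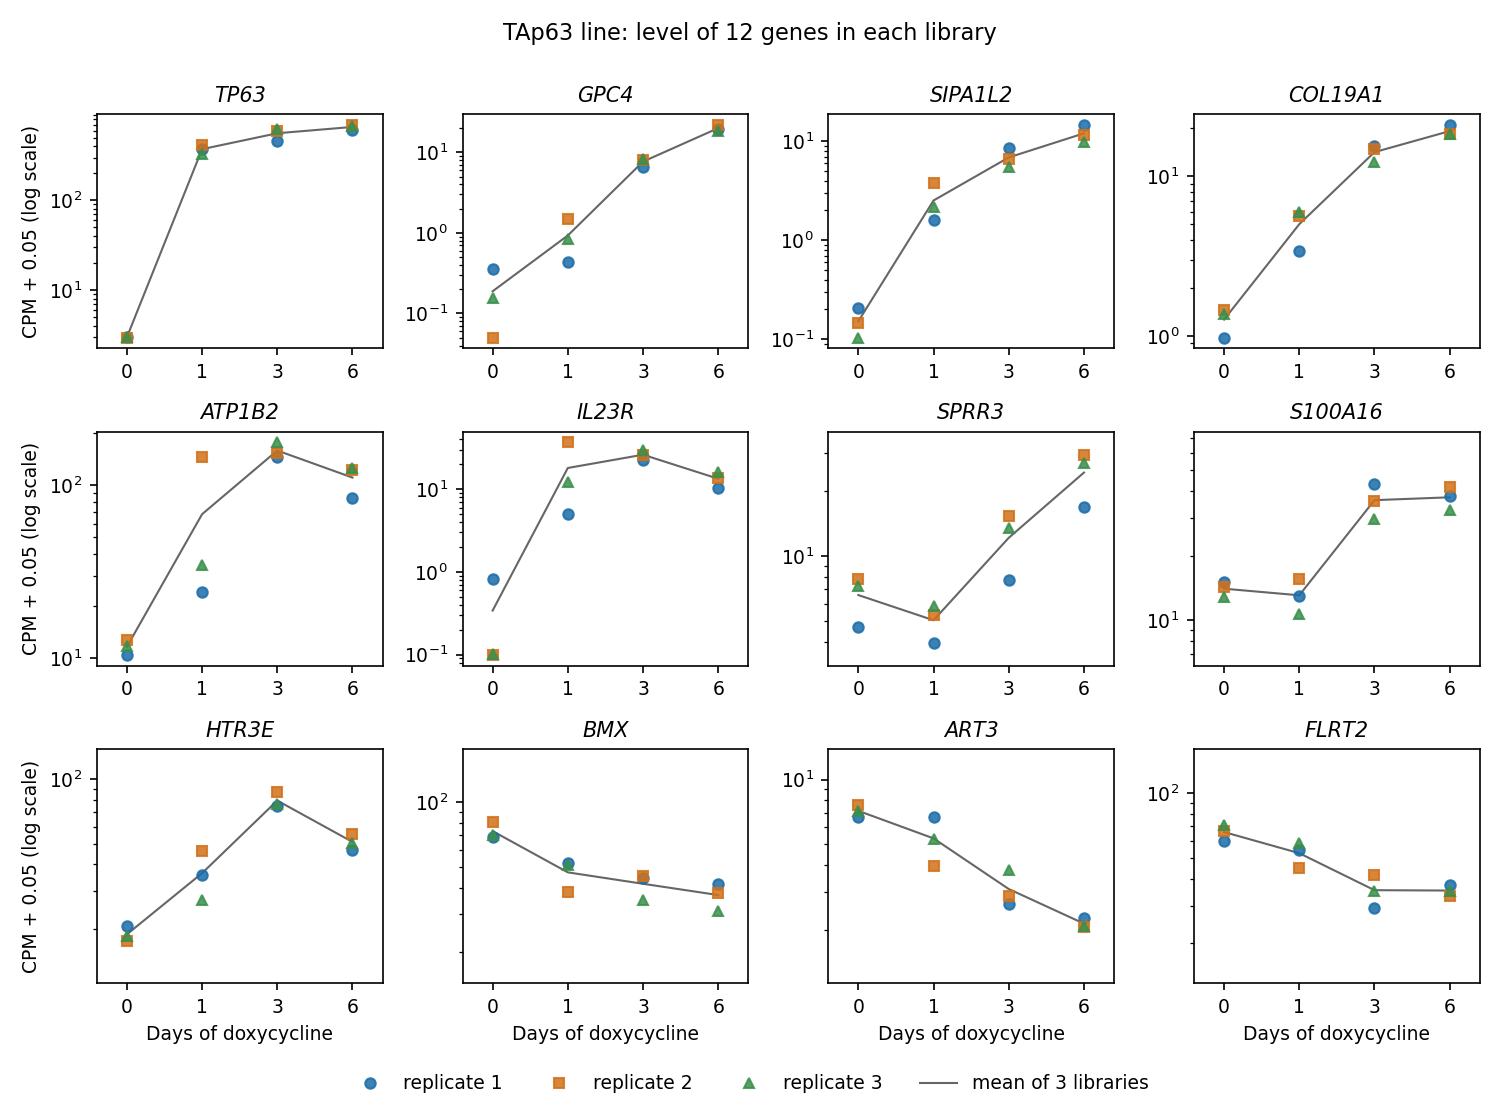
Level of 12 genes in each library of the TAp63 line, as CPM plus 0.05 on a log scale (vertical axes, which differ between panels), against days of doxycycline (horizontal axes). Symbols mark replicate numbers and the line joins the means of 3 libraries; TP63 passed 300 CPM in every library by day 1, GPC4 and SPRR3 were highest at day 6, and IL23R, ATP1B2 and HTR3E peaked in mean at day 3.

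The other times of the line show when the risen genes were highest. Of the 85, 52 had their highest mean at day 6, 30 at day 3 and 3 at day 1. GPC4 went through 0.878 and 7.597 CPM at days 1 and 3 to 19.9 CPM, and COL19A1 through 4.97 and 14.1 to 19.1 CPM. IL23R instead had means of 18.02, 26.1 and 13.3 CPM at days 1, 3 and 6, ATP1B2 of 68.0, 159 and 111 CPM, and RTN4RL2 of 36.7, 32.6 and 22.9 CPM. SPRR3 and S100A16 were no higher in mean at day 1 (4.98 and 13.02 CPM) than at day 0 (6.54 and 13.98 CPM). The day 1 means of IL23R, ATP1B2 and RTN4RL2 rested on replicate 2, which stood at 36.8, 145 and 67.7 CPM; without it they were 8.62, 29.4 and 21.2 CPM, the last below the day 3 mean. These means were compared without a test. Of the 6 fallen genes, 5 were lowest at day 6.

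Genes of squamous differentiation made up the list with the most risen members by count. The lists differ in size, and 3 of 14 tested mesenchymal and matrix genes rose. Of 54 listed and 32 tested, 6 rose and none fell, 14 had an unadjusted p under 0.05, and the block gave 11 higher. Over all genes tested 0.565% were called higher, 2.03% with the block, and 858, or 5.70%, had an unadjusted p under 0.05. The median log2 change was 0.40, with 29 members above 0, against -0.01 over all genes. Its called members encode cornified envelope, calcium-binding and desquamation proteins of several structures. SPRR3, a cornified envelope precursor abundant in the esophagus (chromosome 1, 153001747 to 153003856, plus strand), stood at 4.64, 7.74 and 7.23 CPM at day 0 and 16.8, 29.5 and 26.9 CPM at day 6. Replicate 1 was the lowest on both days and the groups did not overlap (log2 change 1.85 ± 0.279, edgeR adjusted p = 0.00612). S100A16, a calcium-binding protein (chromosome 1, 153606883 to 153613137), stood at 14.99, 14.2 and 12.8 CPM and then at 37.8, 41.4 and 32.5 CPM (1.42 ± 0.169, edgeR adjusted p = 0.000813). Its neighbour S100A14 (chromosome 1, 153614256 to 153616325) stood at 5.87, 5.76 and 6.27 CPM and then at 10.2, 14.2 and 23.5 CPM, a wide day 6 spread (1.41 ± 0.253, edgeR adjusted p = 0.0217, with no call without any 1 of 4 libraries, up to 0.157). TMPRSS11E, a serine protease of squamous epithelia, rose as well, with 52.2 ± 2.98 CPM at day 0 and 101 ± 3.25 CPM at day 6. The esophageal keratin gene KRT13 (chromosome 17, 41500981 to 41505612) stood at 12.8, 8.03 and 9.30 CPM and then at 29.7, 21.1 and 19.1 CPM (1.25 ± 0.248, edgeR adjusted p = 0.0399). Its call ended without any 1 of 5 of the 6 libraries (up to 0.318). KLK7, a kallikrein that cleaves desmosomal proteins in desquamation, went from 3 to 75 counts, a ratio of 28.3 (95% counting interval 9.31 to 140), with no call without any 1 of 4 libraries (up to 0.203).

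With the block alone, EMP1, a membrane protein of squamous epithelium, was called higher too (10.8 ± 0.834 to 23.1 ± 1.31 CPM, edgeR adjusted p = 0.0825 without and 0.000474 with the block). So were the keratin gene KRT80 (log2 change 0.82 with the block), the plakin PPL (0.39) and the kallikreins KLK11 (0.43) and KLK10 (0.35). Members such as TGM1, the transglutaminase that cross-links the envelope (3.94 and 3.89 CPM), SPRR2A (38.7 and 38.1 CPM) and KRT4 (0.731 and 0.638 CPM) stayed short of the threshold. Without single libraries 3 to 6 list members were called.

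Of 22 tested basal squamous genes TP63 rose and none fell, with a median of 0.16. Over all genes tested 0.565% were called higher and 0.0399% lower. ITGA6, the integrin subunit of hemidesmosomes, stood at 202, 197 and 201 CPM at day 0 and 149, 117 and 130 CPM at day 6, with no overlap. It was called lower with the block alone (log2 change -0.61, edgeR adjusted p = 0.00145, against 0.0875 without). KRT5, the basal keratin, was too low to be tested within the line, at 0.464, 0.387 and 0.638 CPM and then 0.645, 0.752 and 0.744 CPM. KRT14 was below 0.2 CPM in all 6 libraries. Among 20 hemidesmosome and basement membrane genes edgeR called 0 (DESeq2 1, with 7 at an unadjusted p under 0.05), and the block called HSPG2, CD151 and COL4A6 higher and ITGA6 lower. Of 16 desmosome and junction genes 0 were called by edgeR, 0 by DESeq2 and 0 at an unadjusted p under 0.05. The 29 simple and columnar epithelial genes held 1 call: AGR2, a disulfide isomerase of secretory cells, stood at 11.4, 11.3 and 11.9 CPM at day 0 and 24.1, 36.5 and 25.8 CPM at day 6 (log2 change 1.32 ± 0.173, edgeR adjusted p = 0.00215). KRT19, a simple keratin, was higher with the block alone (256 ± 27.97 to 359.5 ± 22.6 CPM, edgeR adjusted p = 0.00114).

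**Figure D3:**
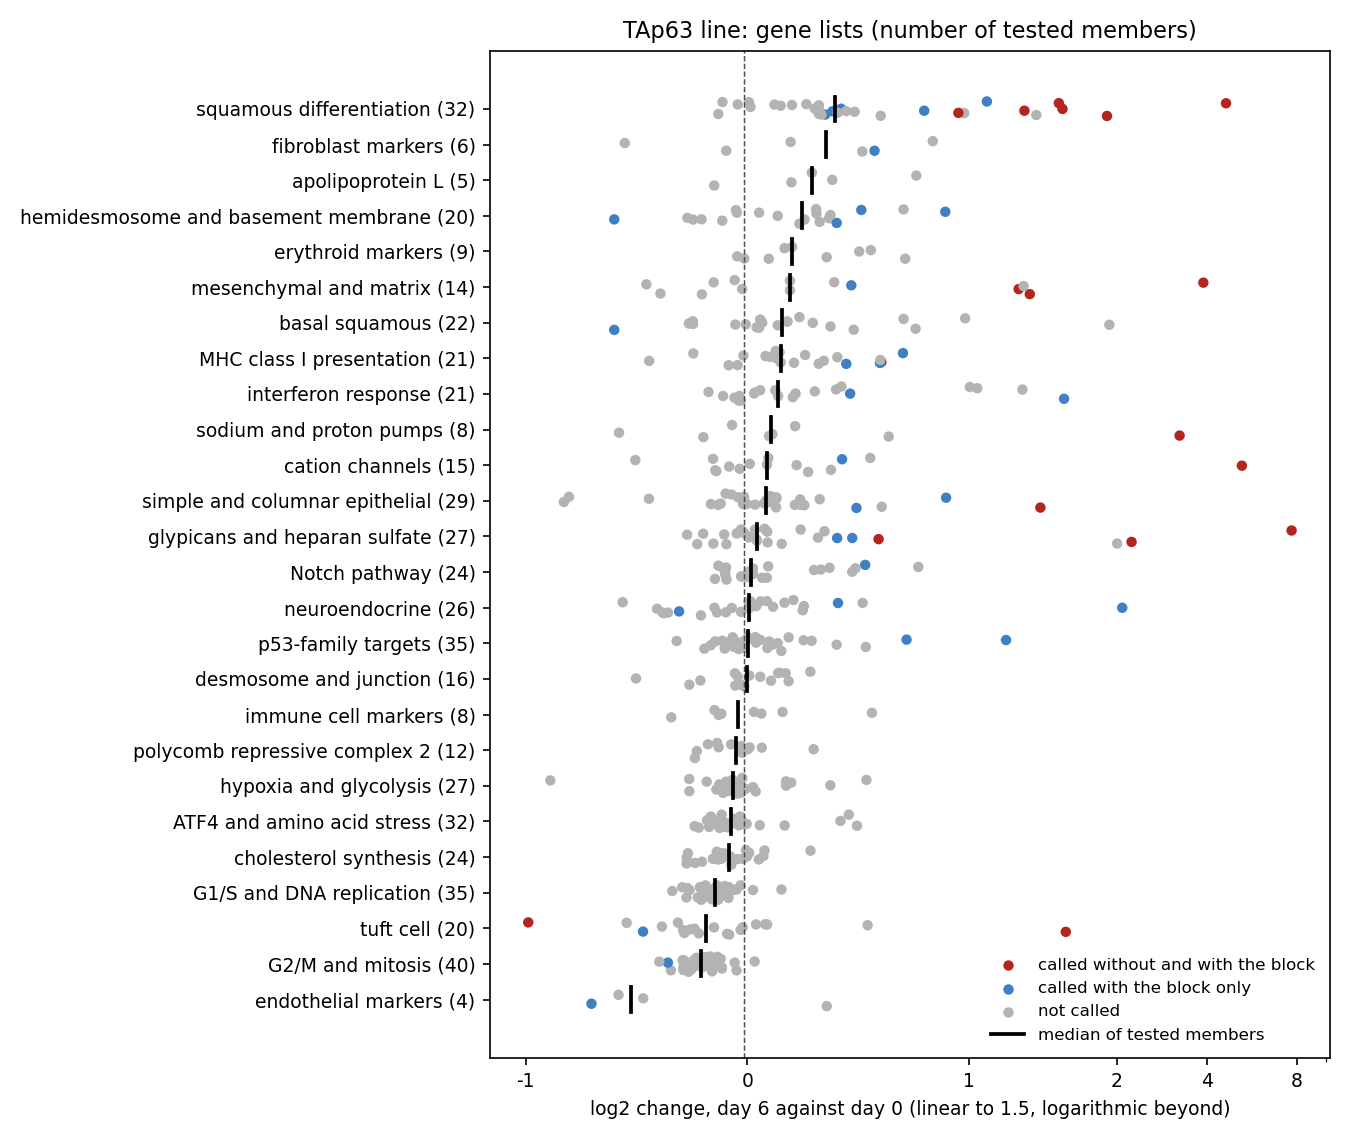
Log2 change from day 0 to day 6 of the TAp63 line (horizontal axis, linear to 1.5 and logarithmic beyond) for the tested members of 26 gene lists, ordered by median. Each point is a gene, TP63 left out, coloured by which fit called it, black bars are medians of all tested members, and the dashed line is the median of all genes. Squamous differentiation has the highest median, 0.40, and G2/M genes lie almost all below 0.

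Of 35 tested targets of the p53 family edgeR called 0 (DESeq2 1, with 4 at an unadjusted p under 0.05), and the median log2 change was 0.00354. CDKN1A, the cell cycle inhibitor p21, stood at 6.80, 6.14 and 5.42 CPM at day 0 and 9.47, 8.65 and 8.18 CPM at day 6. The groups did not overlap, but the log2 change of 0.54 ± 0.188 missed the threshold (edgeR adjusted p = 0.547, and 0.0829 with the block). MDM2, a ubiquitin ligase, stood at 70.1, 96.5 and 119 CPM and then at 71.6, 89.1 and 95.7 CPM. PLK2, a polo-like kinase, and CD82, a tetraspanin, were called higher with the block alone (1.56 ± 0.208 to 3.57 ± 0.362 CPM and 9.64 ± 2.02 to 16.2 ± 2.37 CPM, edgeR adjusted p = 0.00822 and 0.0011). CDKN1A overlaps DINOL, and fragments in such overlaps were left uncounted.

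Over all genes tested 0.565% were called higher and 0.0399% lower. Of 27 glypican and heparan sulfate genes 3 rose and none fell, with a median of 0.04. Beside GPC4 these were SDC2, a syndecan, at 242 ± 1.51 CPM and then 364 ± 16.95 CPM (log2 change 0.59 ± 0.0971, edgeR adjusted p = 0.0114), and HS6ST3, a heparan sulfate 6-O-sulfotransferase, from 1.45 ± 0.304 to 6.67 ± 0.829 CPM. SDC2 lost its call without any 1 of 4 libraries (up to 0.0882). The syndecan gene SDC1 and GLCE, the glucuronyl epimerase, were called higher with the block alone (0.41 and 0.49).

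Of 14 mesenchymal and matrix genes 3 rose and none fell, with a median of 0.19. Over all genes tested 0.565% were called higher and 0.0399% lower. COL19A1, a collagen of basement membrane zones (chromosome 6, 69866556 to 70212467, plus strand), stood at 0.927, 1.40 and 1.33 CPM at day 0 and 20.9, 18.2 and 18.2 CPM at day 6 (log2 change 3.89 ± 0.232, edgeR adjusted p = 2.34e-06). FN1, fibronectin, stood at 34.3, 22.8 and 27.4 CPM and then at 80.5, 67.2 and 54.7 CPM (1.28 ± 0.174, edgeR adjusted p = 0.00298). TGFBI, a matrix protein induced by TGF-β, stood at 1.70, 1.597 and 1.91 CPM and then at 3.51, 4.20 and 4.56 CPM (1.23 ± 0.228, edgeR adjusted p = 0.0274), with no call without any 1 of 5 libraries (up to 0.224). VIM had means of 5.61 and 5.07 CPM. The fibroblast markers COL1A2 and THY1 were at 0 in all 6 libraries, and of 6 tested fibroblast markers edgeR called 0 (2 at an unadjusted p under 0.05, 0 by DESeq2), with COL1A1 higher in the block alone. The summed level of all 13 fibroblast markers ran from 29.6 to 39.7 CPM at day 0 and from 33.1 to 51.8 CPM at day 6. The part of such cells in these rises was not tested.

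Among 20 tested tuft cell genes 1 rose and 1 fell, 15 lay at or below 0, and the median was -0.18. The shares called over all genes tested were 0.565% higher and 0.0399% lower. HTR3E, a serotonin receptor subunit, stood at 20.6, 17.6 and 18.5 CPM at day 0 and 46.5, 55.6 and 50.5 CPM at day 6 (log2 change 1.44 ± 0.167, edgeR adjusted p = 0.000688), although it overlaps its antisense gene. BMX, a Tec family kinase (chromosome X, 15500807 to 15556519), stood at 68.4, 80.6 and 70.2 CPM and then at 41.5, 37.9 and 31.2 CPM (-0.99 ± 0.154, edgeR adjusted p = 0.00823, up to 0.0799 without day 0 replicate 2 or day 6 replicates 2 or 3). In bulk RNA, fewer cells of a kind and less RNA per cell cannot be told apart. ALOX5, arachidonate 5-lipoxygenase, was called lower with the block alone (173 ± 42.9 to 124 ± 24.2 CPM, edgeR adjusted p = 0.00268). POU2F3 stood at 173, 184 and 191 CPM at day 6, all below its day 0 libraries, and was not called (-0.26 ± 0.130, edgeR adjusted p = 0.927, and 0.147 with the block). Of 26 neuroendocrine genes edgeR called 0 (2 at an unadjusted p under 0.05, 0 by DESeq2), with a median of 0.01. At day 6 NEUROD1, a neuroendocrine transcription factor, stood at 1.43, 1.69 and 2.79 CPM and SYP, synaptophysin, at 2.73, 4.07 and 3.07 CPM. CPE, carboxypeptidase E, and RIMS2 were higher and UCHL1 lower with the block alone.

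Among 21 MHC class I presentation genes B2M rose, and none fell. The shares called over all genes tested were 0.565% higher and 0.0399% lower. B2M, which encodes beta-2-microglobulin of the class I complex, stood at 429, 406 and 408 CPM at day 0 and 561, 706 and 623 CPM at day 6 (log2 change 0.61 ± 0.105, edgeR adjusted p = 0.0174, with no call without any 1 of 4 libraries, up to 0.123). The heavy chain genes HLA-B and HLA-C were called higher with the block alone (0.48 and 0.61, edgeR adjusted p = 0.0233 and 0.00949). They share sequence, so their counts are uncertain. The list's median was 0.15, with 16 of 21 above 0. Of 21 interferon response genes edgeR called 0 (4 at an unadjusted p under 0.05, 1 by DESeq2), and IFI6 and ISG20 were higher with the block alone. IFI6 stood at 0.927, 2.90 and 2.07 CPM and then at 4.02, 6.27 and 7.07 CPM. The immune cell markers FCGR3A and CD3D were at or near 0 while LYZ, lysozyme, stood at 850.3 to 1407 CPM, and 0 of 8 tested were called (1 at an unadjusted p under 0.05, 0 by DESeq2).

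Of 40 G2/M and mitosis genes edgeR called 0 (6 at an unadjusted p under 0.05, 0 by DESeq2). The log2 change was above 0 for 1 of the 40, the median was -0.21, and 8 had all 3 day 6 libraries below those of day 0. Over all genes tested, 4.52% had all day 6 libraries below those of day 0, and 5.7% had an unadjusted p under 0.05. BUB1, a spindle checkpoint kinase, was called lower with the block alone (116 ± 10.3 to 90.7 ± 15.7 CPM, edgeR adjusted p = 0.0405). MKI67, the proliferation marker Ki-67, stood at 355, 242 and 241 CPM at day 0 and 306, 165 and 188 CPM at day 6, where replicate 1 was the highest of both days. Of 35 G1/S and DNA replication genes edgeR called 0 (1 at an unadjusted p under 0.05, 0 by DESeq2), 2 lay above 0 and the median was -0.15. Without the libraries of replicate number 1 of every day of the line, the block called 5 G2/M genes.

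EZH2, the catalytic subunit of polycomb repressive complex 2 and the target of EPZ-6438, stood at 206, 196 and 192 CPM at day 0 and 198, 159 and 149.7 CPM at day 6. Of 12 tested genes of that complex edgeR called 0 (2 at an unadjusted p under 0.05, 0 by DESeq2). The inhibitor acts on the enzyme's activity, which the mRNA levels of these genes do not measure. Whether the inhibitor was present was not tested. EdgeR also called 0 among 24 Notch pathway genes (3 at an unadjusted p under 0.05), 24 cholesterol synthesis genes (3), 32 ATF4 and amino acid stress genes (2), 27 hypoxia and glycolysis genes (1) and 5 apolipoprotein L genes (1), and DESeq2 called 0 in each. HES1, a Notch effector, was higher and TEK, an endothelial receptor, lower with the block alone. Among 4 endothelial and 9 erythroid markers edgeR and DESeq2 called 0, with 1 and 0 at an unadjusted p under 0.05.

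ART3, an ADP-ribosyltransferase family member (chromosome 4, 76011180 to 76112802), stood at 6.64, 7.55 and 7.12 CPM at day 0 and 2.22, 2.01 and 2.05 CPM at day 6 (log2 change -1.77 ± 0.224, edgeR adjusted p = 0.00157). It overlaps the chemokine genes CXCL10 and CXCL11. FLRT2, a cell adhesion protein, stood at 59.8, 66.8 and 70.9 CPM and then at 37.5, 33.1 and 34.97 CPM (-0.91 ± 0.143, edgeR adjusted p = 0.00907, up to 0.0726 without any 1 of 4 libraries). PCDH20, a protocadherin (-0.84), CRYM, a thyroid hormone binding protein (-0.75), and PIK3R5, a regulatory subunit of PI3 kinase gamma (-0.64), fell as well. PCDH20 lost its call without any 1 of 5 libraries (edgeR adjusted p up to 0.153), PIK3R5 without any of 4 (up to 0.204) and CRYM without day 0 replicate 2 or day 6 replicate 3 (up to 0.0727).

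Whether the day 6 response of the TAp63 line differed from that of the ΔNp63 line was tested as an interaction over 12 libraries, with each line against its own day 0. EdgeR called 25 of 15132 genes (0.165%), 6 with the higher response in the TAp63 line and 19 with the lower (0.0397% and 0.126%), and 344 with the replicate block (2.27%; 161 higher, 1.06%, and 183 lower, 1.21%), which kept all 25. For TP63 the difference was 0.06 ± 0.180 on the log2 scale (edgeR adjusted p = 1). Of the 85 risen genes 81 had a log2 change above 0 in the ΔNp63 line. The share of all genes with such a change was not counted, so the 81 is a description only. The difference was called for 3 of the 85: HTR3E higher, and KRT13 and TGFBI lower, in the TAp63 line. With the block it was called for 23 of the 85, 15 higher and 8 lower. Those called with the block alone included CSRP2 (1.09), SPRR3 (1.61), CD55 (0.81), RTN4RL2 (1.36) and ATP1B2 (0.61) as higher, and APOBEC3C (-0.81), S100A16 (-0.84), FN1 (-0.69) and B2M (-0.69) as lower.

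KRT5 went from 0.496 ± 0.129 to 0.714 ± 0.0594 CPM in the TAp63 line and from 0.633 ± 0.105 to 22.1 ± 3.43 CPM in the ΔNp63 line (difference -4.60 ± 0.401, edgeR adjusted p = 0.000169). PADI3, an enzyme that citrullinates proteins in hair follicles, stood at 3.56 ± 1.22 and 4.53 ± 0.833 CPM with TAp63 and at 3.00 ± 0.0678 and 87.2 ± 7.30 CPM with ΔNp63 (-4.42 ± 0.280, edgeR adjusted p = 1.01e-05). FXYD3, a regulator of the sodium pump, gave a difference of -4.53 ± 0.409 and TGFBI one of -3.43 ± 0.293. TGFBI and KRT13 rose in the TAp63 line by less, 1.22 against 4.65 and 1.26 against 3.31 on the log2 scale. OLFML2A, an olfactomedin-like matrix protein (-3.10), and TNS4, a tensin (-2.49), differed as well. The higher responses of APOL4, an apolipoprotein L, and SLC1A7, a glutamate transporter, came with lower day 6 than day 0 means in the ΔNp63 line. APOL4 stood at 42.5 ± 3.04 and 55.3 ± 6.82 CPM with TAp63 and at 40.1 ± 2.14 and 15.2 ± 1.76 CPM with ΔNp63 (1.77 ± 0.171, edgeR adjusted p = 0.000344). SLC1A7 gave 2.21 ± 0.271, TCF23, a helix-loop-helix factor, 3.26 ± 0.461, PLEKHB1 1.14, the kallikrein KLK14 1.11 and HTR3E 1.03. TCF23, PLEKHB1 and KLK14 were also lower at day 6 than at day 0 in the ΔNp63 line (log2 changes -2.64, -1.13 and -0.50). Within the TAp63 line their log2 changes were 0.62, 0.01 and 0.61 and were not called, except that of KLK14 with the block. KRT5, PADI3, FXYD3, TGFBI, SLC1A7 and APOL4 kept the call without any 1 of the 12 libraries. The others lost it without 2 libraries or more, TCF23 without ΔNp63 day 6 replicates 1 or 3 (edgeR adjusted p up to 0.0585) and HTR3E and PLEKHB1 without any of the 12 (up to 0.149 and 0.129676). With all 24 libraries HTR3E, KRT13, PLEKHB1, KLK14 and TNS4 lost it (edgeR adjusted p = 0.131 to 0.99995), and KLK14 also with 23. GPC4 and TSPAN18 had larger fitted changes in the TAp63 line (7.66 against 4.57 and 4.43 against 0.88), and neither difference was called (edgeR adjusted p = 0.592 and 0.232). With the block that of TSPAN18 was called (3.70 ± 0.554, edgeR adjusted p = 0.00019) and that of GPC4 was not (0.193).

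**Figure D4:**
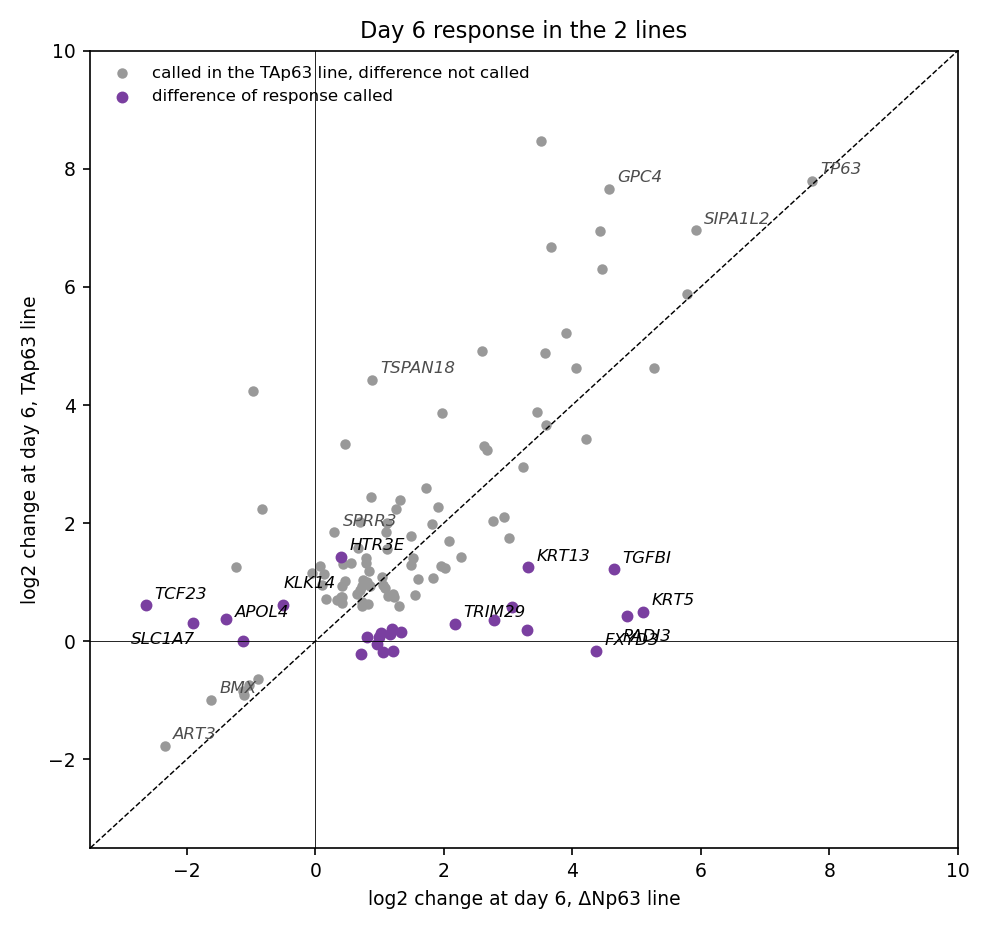
Log2 change at day 6 in the TAp63 line (vertical axis) against that in the ΔNp63 line (horizontal axis) for the genes called in the TAp63 line and the 25 whose difference of response was called (purple); the dashed line marks equal change. KRT5, PADI3 and FXYD3 lie far to the right near 0 on the vertical axis, and TCF23, SLC1A7 and APOL4 lie to the left of 0.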

How the data were processed

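TRIzol RNA and NEBNext Ultra libraries were used, per the labels' protocols. Alignment to hg38 used HISAT2 2.1.0 and counting featureCounts 1.6.1, per the submitters' processing notes; the file header names featureCounts 2.0.0, the refGene annotation and whole transcript spans without strand. The deposited values are raw counts of 28278 genes, 6005 of them 0 in all libraries. Introns are therefore included, isoforms are summed and fragments overlapping 2 genes are left uncounted.

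Counts were analysed with edgeR 4.0.16 in R 4.3.3 (filterByExpr, TMM, glmQLFit, glmQLFTest, Benjamini-Hochberg adjusted p under 0.05). The model held the 12 TAp63 libraries with a mean per day and 8 residual degrees of freedom; the difference between lines used days 0 and 6 of both lines. SE is the absolute log2 change over the square root of F, and approximate. Same-numbered day 0 and day 6 libraries deviated together (r = 0.683, 0.545 and 0.711 over 10565 genes, and 0.345 to 0.820 over all 18 same-number pairs of the line), a pairing taken from the data. No replicates agreed within sampling noise (lowest chi-square per degree of freedom 5.35). Alternatives were other library sets, the block, DESeq2 1.42.0, other scaling and filters, and leaving out libraries.

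Named genes are the 30 largest rises and 10 largest falls called without overlap at 5 CPM or more, up to 6 called members per list, 6 genes per direction of the line difference, and a fixed set of markers; unnamed loci and small RNA genes were left out, and some genes are not reported here. Genes called with the block alone, and other examples in lists, were chosen after their values were seen. The genes and lists were chosen with earlier results of these data known.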

Additional observations from a re-analysis of the deposited data

Results flagged for a closer look

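The day 6 response differed between the TAp63 and ΔNp63 lines by a test of the difference itself for 13 named genes, given as TAp63 minus ΔNp63 on the log2 scale. The response was lower in the TAp63 line for KRT5 (-4.60), FXYD3 (-4.53), PADI3 (-4.42), TGFBI (-3.43), OLFML2A (-3.10), TNS4 (-2.49) and KRT13 (-2.05). It was higher for TCF23 (3.26), SLC1A7 (2.21), APOL4 (1.77), PLEKHB1 (1.14), KLK14 (1.11) and HTR3E (1.03). All of these higher ones but HTR3E had lower day 6 than day 0 means in the ΔNp63 line. The calls of HTR3E, KRT13, PLEKHB1, KLK14 and TNS4 were lost with all 24 libraries. Each isoform was expressed in its own line, so line and isoform cannot be told apart. Groups of 3 libraries are too small for a check of single outlying libraries.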

How the results depend on the processing

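The count of 91 genes depended on which libraries shared the estimate of spread. It was 154 with 23 libraries (ΔNp63 day 1 replicate 3 left out), 343 with the replicate block, 568 with the block over those 23, and 152 with DESeq2. Alternatives chosen after seeing the data gave 319 (block with DESeq2) and 580 (block with the 6 libraries compared), and 76 to 687 with the block and 1 replicate number left out, including 146 without number 3. Leaving out 1 library gave 35 to 85. Settings within 1.5 times of 91 were all 24 libraries (69, of which 61 were among the 91), 6 libraries (72), the block over 24 (122), DESeq2 size factors in edgeR (92), no filter (95) and a filter of 1 CPM (93). The 25 differences of response became 13 with all 24 libraries, 44 with 23, 344 with the replicate block, 87 with DESeq2 and 41 without a filter, and 9 to 16 when 1 library was left out. TP63 was called in every alternative run.

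Of 42 named genes called at day 6, 22 kept the call whichever of the 6 libraries was left out. With all 24 libraries 12 lost it: TSPAN18, PKIB, KIAA0040, FN1, FLRT2, PCDH20, CRYM, PIK3R5, KRT13, TMPRSS11E, TGFBI and SDC2. With only the 6 libraries compared, S100A14, FAM157A, CRYM, PIK3R5, B2M and TGFBI lost it. In every alternative run that was planned, 18 genes kept it, a count that leaves out the alternatives chosen after seeing the data. None of the 42 changed direction. The block over the 12 libraries ended no call; over all 24 it ended those of 10 of the 12 genes above, all but KRT13 and TGFBI.

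Signs changed for 6 named genes that were not called at day 6 with the 12 libraries of the line. HBG2 had a log2 change of 0.018 with all 24 libraries, 0.17 with the replicate block, 0.33 with the block over 24, 0.15 with the block over 23, 0.40 with block and DESeq2, 0.21 with block and 6 libraries, and -1.43 to 3.21 without single libraries (with the block and a number left out, up to 1.72, and 0.14 without number 3). PLEKHB1 was at -0.0157 with the block, -0.0149 with it over 24, -0.0186 with it over 23, -0.0155 with block and DESeq2, -0.00398 with block and 6 libraries, -0.00243 without a filter or block, -0.0827 to 0.115 without single libraries, and -0.0831 and -0.0118 with the block and without number 1 or 2. VIM was at -0.145 with DESeq2, -1.18 to 3.21 without single libraries and -0.278 with the block and without number 2. With the block and without number 1, VIM was at 1.77 and was called higher. Without single libraries FXYD3 ran from -0.404 to 0.0662, OLFML2A from -0.0377 to 0.584 and MDM2 from -0.330 to 0.0345. With the block and without number 1, FXYD3 was at 0.323 and OLFML2A at -0.0776. The cause of these shifts was not tested. Day 0 replicate 1, the library of the TAp63 line with the fewest counts, limits what could be seen in genes near 0.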

Other observations

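A list of 70 lysosomal genes was written down after the values had been seen, so its counts are a description and no test. Of 69 tested members CD63, a tetraspanin of late endosomes, and LITAF, a protein of late endosomal membranes, rose at day 6. With the replicate block 20 were higher and edgeR called 0 lower. Of the 69, 67 had a log2 change above 0, with a median of 0.30 against -0.01 over all genes, and 25 had all day 6 libraries above those of day 0. Over all genes tested, 0.565% were called higher, 2.03% with the block, and 6.76% had all day 6 libraries above those of day 0. CD63 stood at 152, 165 and 178 CPM at day 0 and 245, 305 and 288 CPM at day 6. The cathepsin genes CTSA, CTSB, CTSD, CTSF and CTSH were called higher with the block alone.

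Regulators and components of complement form another list chosen after the values were seen. Of 12 tested, CD55, C1R, a serine protease of the classical pathway, and C9, the pore-forming component, rose. CD59, an inhibitor of the membrane attack complex, was called with the block as well. The shares called higher over all genes tested were 0.565%, and 2.03% with the block. C9 went from 0, 0.290 and 0.319 CPM to 4.88, 4.76 and 5.11 CPM (log2 change 4.22, edgeR adjusted p = 1.35e-05). In the ΔNp63 line C9 stood near 0, at 0.0759 ± 0.0819 CPM at day 0 and 0.0256 ± 0.0444 CPM at day 6. Its fitted log2 change there, -0.97, rested on these low levels. The difference between lines was not called (edgeR adjusted p = 0.379).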
